A study of Homo sapiens with 5 samples.

Results

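Peaks found by 2 antibodies against the same nuclear receptor, SF-1 (steroidogenic factor-1, encoded by NR5A1), were compared in adrenocortical cells at basal SF-1 dosage. The members were all 11009 peaks of the basal lists, 6616 of them called with the Perseus antibody and the others with the Millipore antibody, out of 30372 peaks in the 4 lists of the series. A peak was counted as shared when it overlapped a peak of the other antibody by at least 1 bp, and otherwise as a Millipore-only or a Perseus-only peak. By this rule 3883 Millipore peaks were Millipore only and 510 were shared, and 6110 Perseus peaks were Perseus only and 506 were shared. These are all members, with no filter applied, the one-antibody peaks are described here against each other and against the shared ones.

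The chromatin came from H295R/TR SF-1 cells, a single subclone of the established human adrenocortical tumor line H295R in which doxycycline switches on additional SF-1. Basal cells received no doxycycline, and the overexpressed lists used below for comparison came from cells kept 3 days in it. The antibodies are named by their suppliers, Millipore and Perseus Proteomics, and all cells carried the inducible SF-1 construct. Each list was made by the authors from 3 pooled libraries against 2 libraries of input DNA, so there was 1 list a side, no replicate error and no test between the antibodies. The intervals given are 95% intervals for counting error over peaks only. Peak lists hold no expression values, so the adrenal identity of the cells could not be checked against markers. The numbers of reads behind the lists are not given in the sources used here, and the antibody cannot be told apart from the depth or the libraries that went with it.

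SF-1 is an orphan nuclear receptor that binds DNA as a monomer, through the half-site AGGTCA extended at its 5′ side, and controls steroid hormone synthesis in the adrenal cortex and the gonads. NRSF, also called REST, is a zinc finger repressor that keeps neuronal genes silent in other tissues through a long composite element. CpG islands are GC-rich stretches that keep their CpG dinucleotides and cover many promoters of broadly expressed genes. Sequences present in many copies, such as centromeric satellites and nuclear copies of mitochondrial DNA, are places where short reads cannot be placed with certainty.

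The sequences below show the kinds of peak that set the lists apart, read from the GRCh37 reference (the hg19 build) in the direction of the match. The first set holds the NRSF consensus under the 4 best-ranked Millipore-only peaks, with the 21 bases of the element in capitals. Up to 4 mismatches were accepted over the 19 positions that the element fixes, and these matches have 4, 2, 1 and 3.
Rank 1, within the gene ENSG00000232413, nearest coding gene MVB12B, chr9:128845122-128845172, plus strand: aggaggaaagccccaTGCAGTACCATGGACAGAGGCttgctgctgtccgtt
Rank 2, intron of NPAS4, chr11:66189247-66189297, minus strand: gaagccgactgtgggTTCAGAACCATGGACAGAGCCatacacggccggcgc
Rank 3, within the antisense gene ZIM2-AS1, nearest coding gene SMIM17, chr19:57149474-57149524, plus strand: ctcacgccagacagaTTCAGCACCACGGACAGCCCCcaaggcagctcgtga
Rank 4, within the non-coding gene MIR7-3HG, nearest coding gene FEM1A, chr19:4769570-4769620, plus strand: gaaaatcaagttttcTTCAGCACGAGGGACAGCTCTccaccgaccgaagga

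The next set holds the SF-1 consensus, in capitals, in leading peaks of each class. The consensus covers 8 sequences, which are T or C, then CAAGG, then T or C, then C, then A or G. They are shown because this is the element SF-1 itself binds, and because its surroundings differ in base composition.
Millipore only, rank 45, coding exon of CORO2B, chr15:68987391-68987449, plus strand: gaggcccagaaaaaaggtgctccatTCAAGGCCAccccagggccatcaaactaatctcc
Millipore only, rank 53, intron of SEMA6D, chr15:47962626-47962684, plus strand: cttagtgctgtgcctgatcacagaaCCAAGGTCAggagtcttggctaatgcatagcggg
Perseus only, rank 53, intron of ISOC2, chr19:55972755-55972813, minus strand: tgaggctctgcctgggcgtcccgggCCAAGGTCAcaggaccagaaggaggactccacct
Perseus only, rank 91, intron of TPRN, chr9:140095539-140095597, minus strand: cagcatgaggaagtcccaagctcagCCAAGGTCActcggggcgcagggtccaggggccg
Shared, Millipore rank 17, within LINC00689, nearest coding gene VIPR2, chr7:158806049-158806107, plus strand: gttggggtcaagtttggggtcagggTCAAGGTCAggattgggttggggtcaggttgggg
Shared, Millipore rank 33, intron of SLC7A9, chr19:33322673-33322731, plus strand: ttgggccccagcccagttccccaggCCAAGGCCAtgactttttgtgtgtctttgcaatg

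The last set shows 3 kinds of Perseus-only peak. In the CpG-rich peak beside AAAS, a nuclear pore gene, the capitals mark GC boxes. In the peak on chromosome 1 they mark the 104 bases that lie in 25-base words also present in the mitochondrial genome. The peak on chromosome 10 has no capitals, since every 36-base word in it occurs more than once in the genome.
CpG-rich, rank 227, 252 bp upstream of AAAS, chr12:53718825-53718974, plus strand: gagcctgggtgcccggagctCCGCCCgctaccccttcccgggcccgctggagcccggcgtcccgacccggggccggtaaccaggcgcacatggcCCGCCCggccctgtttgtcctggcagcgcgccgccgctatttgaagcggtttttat
Mitochondrial words, rank 1, in the pseudogene MTCO3P12, chr1:569850-569999, plus strand: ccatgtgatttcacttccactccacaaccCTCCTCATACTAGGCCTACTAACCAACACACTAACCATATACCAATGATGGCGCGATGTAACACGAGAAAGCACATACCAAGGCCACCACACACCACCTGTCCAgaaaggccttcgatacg
Multicopy, rank 2, intergenic, chr10:42535551-42535749, plus strand: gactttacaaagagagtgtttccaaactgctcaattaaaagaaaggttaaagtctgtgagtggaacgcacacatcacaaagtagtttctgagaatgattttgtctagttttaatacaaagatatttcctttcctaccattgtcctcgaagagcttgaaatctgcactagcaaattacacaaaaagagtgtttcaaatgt

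The antibodies had few peaks in common. In the Millipore list 510 peaks overlapped a Perseus peak, 11.6% (95% Wilson interval 10.7 to 12.6), and in the Perseus list 506 of 6616 did, 7.65% (7.03 to 8.31). Windows as wide as the peaks and 5 kb away on either side overlapped the other list far less often, at 0.148% for Millipore and 0.0909% for Perseus. When the Perseus list was cut to its best ranks, as many as the Millipore list holds, the shares were 8.45% and 8.31%. Most one-antibody peaks were also not close to the other list. The nearest peak of the other antibody lay at a median of 136.4 kb from a Millipore-only peak and 150.1 kb from a Perseus-only peak. It lay within 1 kb of 2.47% of the Millipore-only peaks and of 1.95% of the Perseus-only peaks.

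Shared peaks stood nearer the top of the Millipore list than of the Perseus list. With each list divided by rank into 4 equal groups, 24.9% of the best group of the Millipore list was shared, and 8.93%, 7.56% and 5.01% of the following groups. The corresponding shares in the Perseus list were 10.3%, 7.80%, 6.65% and 5.86%. The 3 shared sites with the best pair of ranks were nearest to TMEM121 (Millipore rank 44, Perseus rank 60), VIPR2 (ranks 17 and 69) and PLEKHG4B (ranks 34 and 81). They lay far from the starts of these genes, at 1168930, 131409 and 42508 bp. VIPR2 encodes a receptor for vasoactive intestinal peptide. Only the site nearest to VIPR2 among these 3 held the SF-1 consensus.

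Perseus-only peaks lay at promoters far more often than Millipore-only peaks. The centre of 1698 Perseus-only peaks, 27.8%, lay within 1 kb of the transcription start site (TSS) of a protein-coding gene, against 134 Millipore-only peaks, 3.45%. The difference was 24.3 percentage points (Newcombe interval 23.1 to 25.6), a ratio of 8.05. In windows 5 kb away these shares were 2.22% and 1.42%, so the Perseus-only share exceeded its surroundings by more than the Millipore-only share did. With lists of equal length, cut by rank, the shares were 31.9% and 3.61%. The median distance to the nearest TSS was 20.1 kb for Perseus-only peaks, 70.04 kb for Millipore-only peaks and 29.7 kb for shared peaks.

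**Figure D1:**
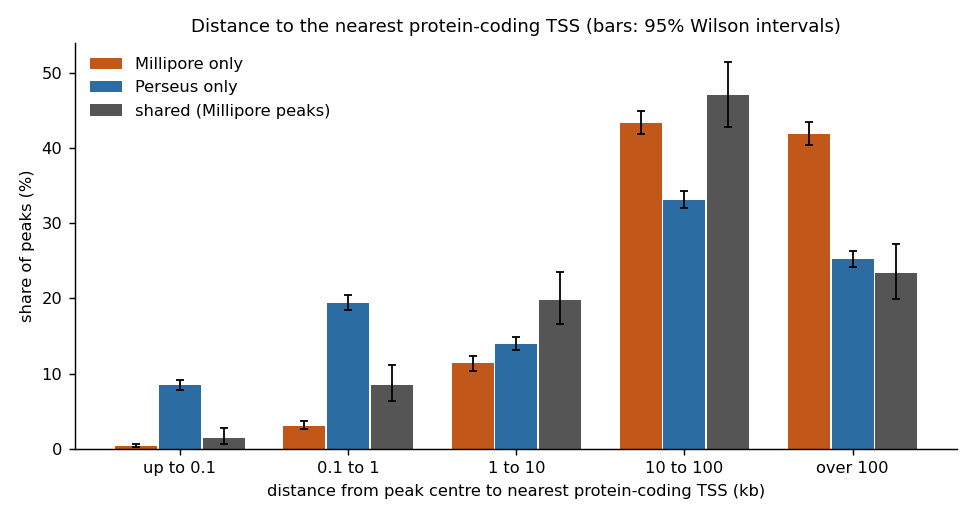
Share of peaks (vertical axis, percent of each class) by distance from the peak centre to the nearest protein-coding TSS (horizontal axis, kb), for Millipore-only, Perseus-only and shared peaks. Error bars are 95% Wilson intervals; within 0.1 kb lay 8.43% of Perseus-only and 0.361% of Millipore-only peaks, and over 100 kb away lay 25.2% and 41.8%.

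The contrast by position was steepest next to the start. At 0.1 to 1 kb the shares were 19.4% for Perseus only and 3.09% for Millipore only. At 1 to 10 kb they were 13.9% and 11.4%, so that the classes came close. Beyond this distance the order turned, with 33.1% of Perseus-only and 43.3% of Millipore-only peaks at 10 to 100 kb. Exons followed the same order as starts. Untranslated exons held the centre of 11.3% of Perseus-only and 2.68% of Millipore-only peaks, and coding exons held 4.40% and 2.42%. Introns held 40.8% and 44.6%, and 43.6% and 50.3% were intergenic, that is outside protein-coding genes, a difference of -6.77 points (-8.77 to -4.76). Among peaks more than 10 kb from a TSS the intergenic difference was -1.03 points with an interval that included 0.

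GC content separated the classes as well. The sequence under Perseus-only peaks had a mean GC content of 52.3% (SD 15.3, n = 6110 peaks) against 45.7% (SD 8.78, n = 3883 peaks) under Millipore-only peaks. The difference was 6.55 points (6.08 to 7.03), and the shared peaks had a mean of 52.4%. The Perseus-only peaks were spread more widely, with 38.4% and 66.7% as the quartiles, while the Millipore-only quartiles were 39.4% and 51.5%. Windows 5 kb away had means of 43.5% and 41.7%. Among peaks more than 10 kb from a TSS the difference was -0.199 points, with an interval that included 0, and among peaks that were not CpG-rich, a choice made after seeing the data, it was -1.60 points.

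**Figure D2:**
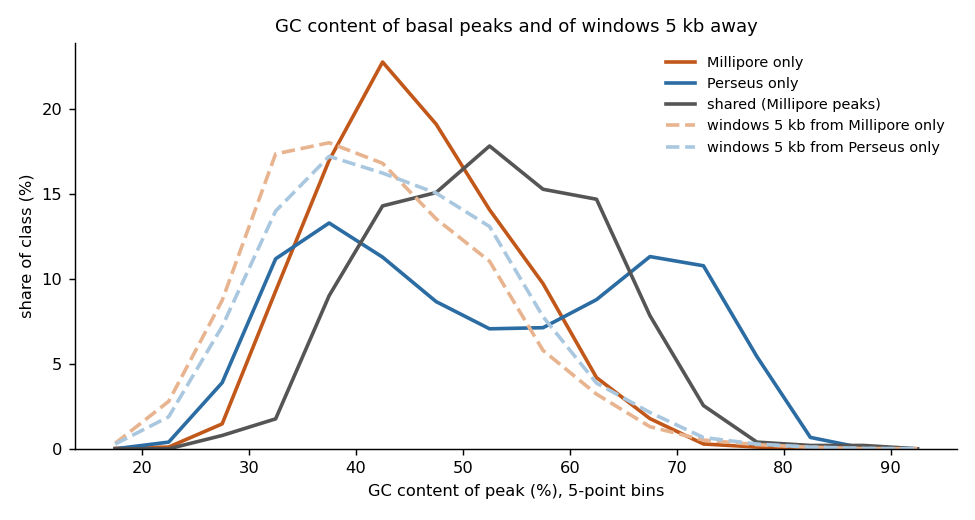
Distribution of GC content (horizontal axis, percent of bases in steps of 5 points) over peaks of each class (vertical axis, percent of peaks). Perseus-only peaks form humps at 35 to 40% and at 65 to 70%, whereas Millipore-only peaks form a single hump around their mean of 45.7%.

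A peak was called CpG-rich when the 500 bp around its centre had a GC content above 50% and an observed-to-expected CpG ratio above 0.6, the properties of a CpG island. Perseus-only peaks were CpG-rich in 2080 cases, 34.04%, and Millipore-only peaks in 84 cases, 2.16%. The difference was 31.9 points (30.6 to 33.1), a ratio of 15.7, and with lists of equal length the shares were 38.9% and 2.36%. Shared peaks lay between the classes with 12.9%. The windows 5 kb away were CpG-rich in 2.22% and 1.42% of cases. Most of the promoter contrast coincided with CpG content, since 1480 of the 1698 Perseus-only peaks near a start were CpG-rich, 87.2%. Of the 134 Millipore-only peaks near a start 44 were, 32.8%. Within strata of 5 points of GC the difference in the share near a start was 9.24 points, and without CpG-rich peaks, again chosen after seeing the data, it was 3.04 points. The CpG-rich difference was 10.2 points within GC strata and 8.55 points among peaks more than 10 kb from a start.

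**Figure D3:**
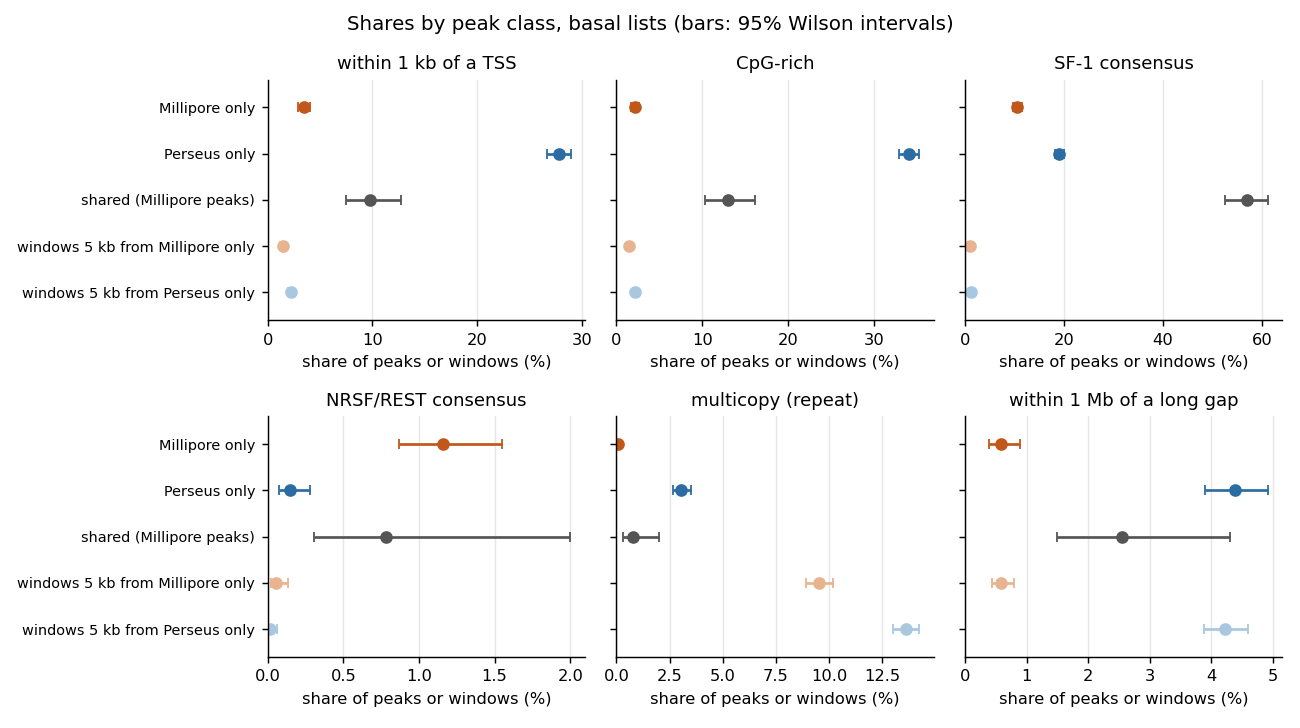
Share of Millipore-only, Perseus-only and shared peaks, and of windows 5 kb away, with each feature (horizontal axis, percent; bars are 95% Wilson intervals). Perseus-only peaks sit to the right for positions within 1 kb of a TSS (27.8% against 3.45%) and CpG-rich sequence (34.04% against 2.16%), and shared peaks sit to the right of both for the SF-1 consensus (56.9%).

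The 5 best-ranked Perseus-only peaks within 1 kb of a start lay at ANKRD30BL, FEM1B, OGDH, NBPF1 and POLM. FEM1B, an adaptor of a ubiquitin ligase, had a peak of rank 72 centred 8 bp upstream of its start, and OGDH, a subunit of the 2-oxoglutarate dehydrogenase complex, had one of rank 74 at 96 bp upstream. POLM, a DNA polymerase of end joining, had one of rank 78 at 179 bp downstream. The peaks at ANKRD30BL (rank 63) and NBPF1 (rank 76) lay 317 and 82 bp downstream, with 0% and 2.93% of their 36-base words multicopy. All 5 of these peaks were CpG-rich, and none held the SF-1 or the NRSF consensus.

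The 5 best-ranked Millipore-only peaks within 1 kb of a start lay at other genes. They were at NPAS4 (rank 2, 769 bp downstream), an activity-dependent transcription factor of neurons, CELSR3 (rank 27, 994 bp downstream), an adhesion receptor of axon guidance, and GLRA1 (rank 28, 62 bp downstream), a glycine receptor subunit. EPHA10 (rank 29, 680 bp downstream), an ephrin receptor, and HTR5A (rank 37, 134 bp upstream), a serotonin receptor, followed. All 5 peaks were CpG-rich and all 5 held the NRSF consensus. Within 1 kb of a start 10 of 134 Millipore-only peaks and 5 of 1698 Perseus-only peaks held it.

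The SF-1 consensus was present in both classes, and most often in the shared peaks. It was found in 1164 Perseus-only peaks, 19.1%, in 411 Millipore-only peaks, 10.6%, and in 56.9% of the shared peaks (52.5 to 61.1) as seen in the Millipore list. Windows 5 kb away held it in 1.25% and 0.979% of cases, so both one-antibody classes stood above their surroundings by a wide margin. The difference between the classes was 8.47 points (7.07 to 9.83), a ratio of 1.80, with shares of 20.9% and 12.2% in lists of equal length. In the better-ranked 50% of each list the difference was 5.63 points. The shorter half-site AAGGTCA was present in 14.6% of Perseus-only, 9.81% of Millipore-only and 45.1% of shared peaks.

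The excess of the SF-1 consensus in Perseus-only peaks was measured again by CpG and GC content. Among peaks that were not CpG-rich 22.8% of Perseus-only and 10.7% of Millipore-only peaks held it, a difference of 12.2 points (10.5 to 13.8). Among CpG-rich peaks the shares were 11.7% and 7.14%, a difference of 4.59 points whose interval of -3.10 to 8.68 included 0. Within 1 kb of a TSS they were 13.5% and 9.70% (difference 3.78 points, -2.59 to 8.08), and beyond 10 kb 20.2% and 9.89% (difference 10.3 points). By GC content, the shares were 16.5% and 7.52% below 45% GC, 31.2% and 12.9% between 45% and 55%, and 17.04% and 15.5% above 55%. The last pair differed by 1.52 points, with an interval of -1.82 to 4.53.

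The forms of the element were in part alike in both classes. TCAAGGTCA made up 32.9% of the matches in Millipore-only, 30.5% in Perseus-only and 36.5% in shared peaks, and CCAAGGTCA made up 27.8%, 28.0% and 27.8%. Forms that end in G were a larger part of the Perseus-only than of the Millipore-only matches. CCAAGGCCG made up 5.41% of these (4.28 to 6.82) against 0.883% of the Millipore-only matches (0.344 to 2.25), and TCAAGGCCG made up 3.39% and 1.32%. In windows 5 kb away TCAAGGTCA made up 24.1% of the matches beside Millipore-only and 22.7% beside Perseus-only peaks. There CCAAGGCCG made up 5.06% (1.99 to 12.3) and 6.49% (3.57 to 11.5), so its Perseus-only share was not above the windows. TCAAGGCCG made up 2.53% and 1.30% of the window matches. The base before AAGGTCA, which the consensus fixes as C, was C in 75.2% of the half-sites under Millipore-only peaks (70.8 to 79.1), 83.6% under Perseus-only peaks (81.2 to 85.9) and 90.3% under shared peaks, against 37.6% and 42.3% in the windows. For this base and for CCAAGGCCG the intervals of the one-antibody classes did not overlap. For TCAAGGCCG they did, with 0.608 to 2.86 in Millipore-only and 2.52 to 4.55 in Perseus-only peaks. Peaks with the consensus held more than 1 match in 9.25% of Millipore-only, 4.55% of Perseus-only and 15.9% of shared cases. Matches lay within 50 bp of the peak centre in 71.1%, 67.8% and 70.5% of cases. In the windows the shares were 70.9% (60.1 to 79.7) beside Millipore-only and 59.7% (51.8 to 67.2) beside Perseus-only peaks, whose interval overlapped that of the Perseus-only peaks (65.1 to 70.3). The median width of both one-antibody classes was 149 bp, with means of 149.2 bp for Millipore-only and 172.9 bp for Perseus-only peaks. Shared peaks had a median of 199 bp. In lists of equal length the medians were 149 bp for Millipore-only and 199 bp for Perseus-only peaks. Over peaks no wider than the median, a choice made after seeing the data, the SF-1 consensus difference was 5.99 points (4.47 to 7.48).

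The best-ranked peaks with the SF-1 consensus were at different genes in the 2 classes. The Millipore-only ones lay in FAM24A (rank 16, which also held the NRSF consensus), CORO2B (rank 45), SEMA6D (rank 53), HLCS (rank 59), the enzyme that attaches biotin to carboxylases, and ST8SIA1 (rank 60), a sialyltransferase. None of these 5 was within 1 kb of a TSS and none was CpG-rich. The Perseus-only ones were the mitochondrial-like peak on chromosome 1 (rank 1), ISOC2 (rank 53), ZNF747 (rank 85), TPRN (rank 91) and a peak in LINC00174 on chromosome 7 (rank 102). The 3 in ISOC2, ZNF747 and TPRN were CpG-rich.

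**Figure D4:**
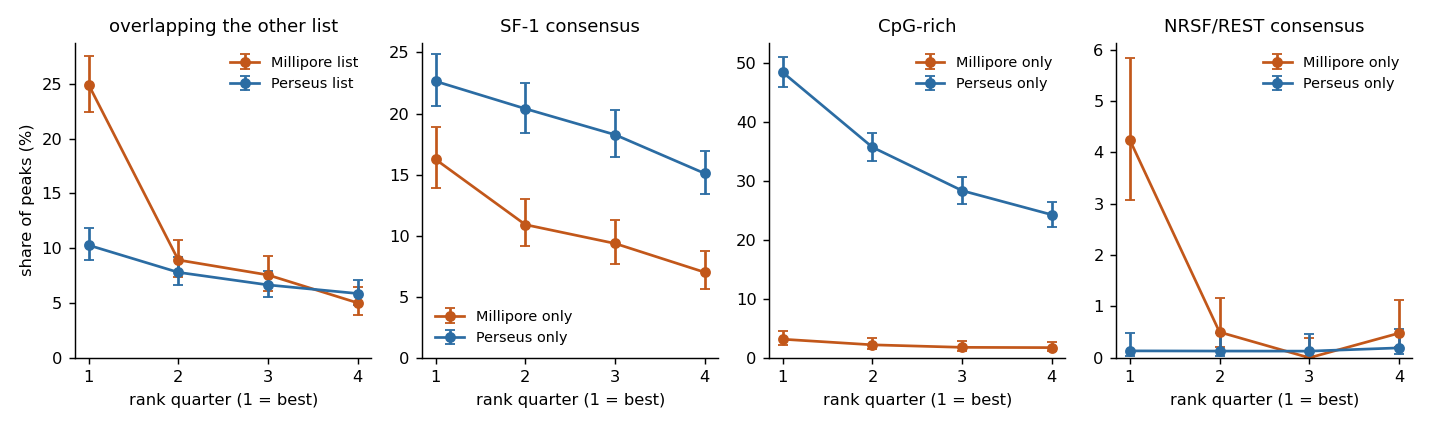
Share of one-antibody peaks with each feature (vertical axis, percent; bars are 95% Wilson intervals) by rank group, 4 equal groups of each list (horizontal axis, 1 is best). The SF-1 consensus falls from 16.2% to 7.00% in Millipore-only and from 22.6% to 15.1% in Perseus-only peaks, and the NRSF consensus gathers in the first Millipore group (4.24%).

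Along the ranks the SF-1 consensus became rarer in both classes. From the first to the last of the 4 rank groups it was present in 16.2%, 10.9%, 9.36% and 7.00% of the Millipore-only peaks. In the Perseus-only peaks it was present in 22.6%, 20.4%, 18.3% and 15.1%. CpG-rich sequence fell along the Perseus ranks from 48.5% to 24.3%, and stayed between 3.15% and 1.73% in the Millipore-only peaks. The share of Perseus-only peaks near a start fell from 37.7% to 19.4%. Peaks near long assembly gaps fell from 8.96% to 2.63%.

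The NRSF consensus was the feature that marked the top of the Millipore list. It was found in 45 Millipore-only peaks, 1.16%, and in 9 Perseus-only peaks, 0.147%, a difference of -1.01 points (-1.41 to -0.691), so that the Millipore-only share was 7.87 times as high. Among shared peaks 4 of 510 held the consensus in the Millipore list, 0.784% (0.305 to 2.00), and 3 of 506 in the Perseus list, 0.593%. The first interval overlapped that of the Millipore-only peaks, 0.867 to 1.55. Windows 5 kb away from the one-antibody peaks held the consensus in 4 of 7763 and 2 of 12192 cases. Of the 10 best-ranked Millipore-only peaks 9 held it and none held the SF-1 consensus. Of the best 50, 24 held it and 11 held the SF-1 consensus, and of the best 100, 25 and 26 did. None of the 10 best-ranked Perseus-only peaks held it. By rank group 35, 5, 0 and 5 Millipore-only peaks held it, against 2, 2, 2 and 3 Perseus-only peaks. In the better-ranked 50% of each list the difference was -1.95 points. With 5 mismatches allowed it was -0.376 points, and over peaks no wider than the median, a choice made after seeing the data, it was -0.155 points, both with intervals that included 0.

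The NRSF peaks of the 2 antibodies also differed in rank, width and match. The Millipore-only ones had a median rank of 67 and a median width of 299 bp, and the Perseus-only ones a median rank of 3773 and a median width of 149 bp. Of the 45 Millipore-only ones 4, 17, 15 and 9 had 1, 2, 3 and 4 mismatches, while 7 of the 9 Perseus-only ones had 4. Positions were mixed, with 10 of the 45 within 1 kb of a TSS, 19 within 10 kb and 12 beyond 100 kb. The peaks past the first few were chosen for naming after their values were seen. They included L1CAM (rank 12), a neural adhesion molecule, SYT7 (rank 67), a synaptotagmin, and the potassium channel gene KCNH7 (rank 314). SST (rank 316), which encodes somatostatin, SNAP25 (rank 1687), a part of the synaptic fusion complex, and the neuropeptide gene CARTPT (rank 2092) were further down. These named genes do not stand for all 45. Other Millipore-only peaks with the consensus were nearest to CTTN (rank 11), SIGLEC16 (rank 21), PNPLA6 (rank 22), ZC3H18 (rank 366), CTNNBL1 (rank 583) and LRPPRC (rank 3906). The nearest genes were not classed by function. The Perseus-only peaks with the consensus were led by ZNF550 (rank 747, 4 mismatches) and BARHL1 (rank 1267, 1 mismatch), a homeobox gene of the nervous system. The BARHL1 match is shown for comparison with the 4 above, the element in capitals.
Perseus only, rank 1267, 468 bp upstream of BARHL1, chr9:135457547-135457597, minus strand: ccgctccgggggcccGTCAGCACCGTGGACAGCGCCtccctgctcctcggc

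**Figure D5:**
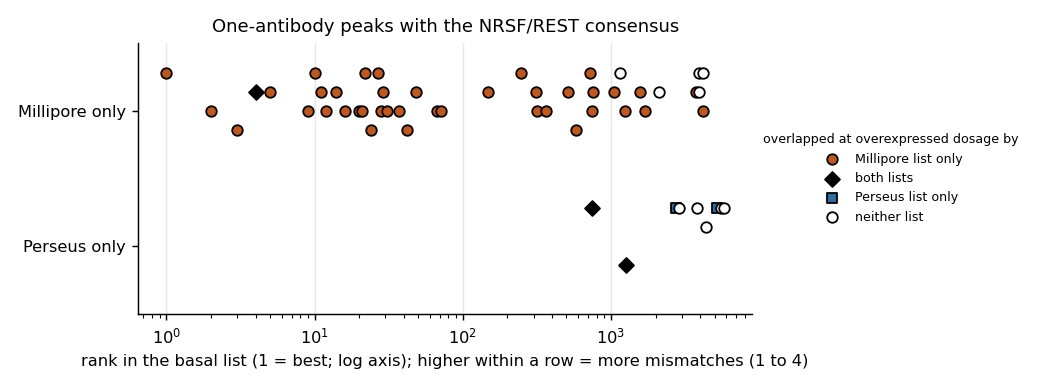
Rank in the basal list (horizontal axis, log scale, 1 is best) of each one-antibody peak with the NRSF consensus, in a row for each antibody, set higher within its row for more mismatches; symbols tell which overexpressed lists overlapped it. The 45 Millipore-only peaks have a median rank of 67 and 40 were found again with the Millipore antibody, and the 9 Perseus-only peaks have a median rank of 3773.

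Other short sequences differed between the classes as well. The GC box GGGCGG, bound by Sp1-type factors, was in 22.8% of Perseus-only and 2.24% of Millipore-only peaks, against 4.05% and 3.13% of the windows 5 kb away, searched on both strands as were all motifs. The ETS element CCGGAA was in 8.07% and 1.62%, and the full cyclic AMP response element in 0.753% and 0.0773%. The palindromic NRF1 element was in 42 Perseus-only peaks and 1 Millipore-only peak, and a CTCF-type sequence in 24 and 3. In the opposite direction the E-box CATGTG was in 6.27% of Perseus-only and 10.7% of Millipore-only peaks, GATAAG in 3.67% and 5.31%, and CCAAT in 16.8% and 21.5%. CCAAT was in 20.91% and 19.97% of the windows. The AP-1 element TGANTCA was in 4.53% and 4.84%, a difference of -0.308 points with an interval of -1.18 to 0.530.

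Of all 6-base words, counted with their reverse complements, the one with the largest excess in Perseus-only peaks was CCCGCC, in 23.6% against 2.70%. The one with the largest excess in Millipore-only peaks was CAGATG, in 12.8% against 7.53%. Set against their own windows the classes had different leading words. In Millipore-only peaks this was CCTTGA, the reverse complement of TCAAGG in the SF-1 consensus, in 16.1% of peaks and 7.37% of windows. The same word was in 21.03% of Perseus-only peaks and 8.14% of their windows, a larger excess. In Perseus-only peaks it was CCCCGC, in 22.6% and 3.39%.

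The top of the Perseus list held peaks in multicopy sequence. The reference marks no repeats, so a peak was counted as repeat when at least 50% of its 36-base words occurred more than once in the genome. This was so for 186 Perseus-only peaks, 3.04%, and 3 Millipore-only peaks, 0.0773%, a difference of 2.97 points. The windows 5 kb away held 13.6% and 9.53%, more than the peaks of either class. Windows were kept whether or not short reads can be placed in them, so this contrast cannot be read as a property of the sites. Without the peaks near long assembly gaps the difference was 1.88 points, and among peaks more than 10 kb from a TSS it was 4.63 points. Within 1 Mb of a gap of at least 1 Mb in the assembly, as at centromeres, lay 268 Perseus-only peaks, 4.39%, and 23 Millipore-only peaks, 0.592%, a difference of 3.79 points. The windows gave 4.22% and 0.593%, and such windows lie mostly near the same gaps as their peaks.

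Part of the Perseus-only peaks near the gaps held satellite sequence. Of the 268, 252 were intergenic, 21 held GGAAT in tandem, a satellite repeat, 12 held the CENP-B box of alpha satellite, and 4 held the SF-1 consensus. Chromosome 21 held 28 of them, chromosome 10 held 24, chromosome Y held 21 and chromosome 20 held 20. Of the 10 best-ranked Perseus-only peaks 6 were near a gap and 9 were intergenic, and all 10 held at least 1 multicopy word. Of the best 50, 33 were near a gap, and of the best 100, 50. Among the best 500 the picture had changed, with 90 near a gap, 178 within 1 kb of a TSS and 247 CpG-rich. The CENP-B box was in 20 Perseus-only and 0 Millipore-only peaks, with a Wilson interval for the Millipore-only share that reached up to 0.0988%.

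Mitochondrial-like sequence appeared in the Perseus list only. Words of 25 bases shared with the mitochondrial genome were present in 8 Perseus-only peaks and 0 Millipore-only peaks, with the same upper limit. The peak of rank 1, at chr1:569701-570149 in the pseudogene MTCO3P12, had 66.6% such words, the peak of rank 7 at chr11:10530751-10531199 near RNF141 had 63.3%, and the peak of rank 4 in an intron of PCBD2, at chr5:134259651-134260499, had 26.7%. The last contains the mitochondrial pseudogene MTND6P4. The other leading Perseus-only peaks were those of rank 2, 598368 bp from ZNF33B, and of rank 3, nearest to POTEA on chromosome 8, both near a gap, and that of rank 6 nearest to TRIM51G. The match to the SF-1 consensus in the rank 1 peak falls in this mitochondrial-like sequence.

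The best-ranked Millipore-only peaks lay mostly in sequence that occurs once. Beside the 4 whose NRSF matches are shown above, the peak of rank 5 lay 108851 bp downstream of the start of LHX2, a LIM homeobox gene, and held the consensus with 3 mismatches. At ranks 2, 3 and 4 no 36-base word was multicopy, and at ranks 1 and 5 9.42% and 6.59% of the words were. None of the 5 lay near a long gap.

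The genes close beside the peaks were mostly different for the 2 antibodies. The part in common rose with distance, as did the share of all genes near a peak, and was above that share at each distance. Of 20163 protein-coding genes 1886 had a Perseus-only peak within 1 kb of the TSS, 9.35% of all, and 148 had a Millipore-only peak there, 0.734%. The 24 genes in common were 1.27% of the first and 16.2% of the second, beside 0.734% and 9.35% of all genes. Within 10 kb the numbers were 2985 genes, 14.8%, and 693 genes, 3.44%. The 175 genes in common were 5.86% of the first and 25.3% of the second, beside 3.44% and 14.8% of all genes. Within 100 kb 9183 genes, 45.5%, and 5451 genes, 27.0%, had such peaks. The 3222 in common were 35.1% of the first and 59.1% of the second, beside 27.0% and 45.5% of all genes. With lists of equal length 2266 and 745 genes had one within 10 kb.

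Genes of steroid synthesis had one-antibody peaks close by about as often as all genes. Within 10 kb of the TSS 3 of 15 such genes had a Perseus-only peak and 1 had a Millipore-only peak, beside 14.8% and 3.44% of all genes. STAR, which carries cholesterol into mitochondria, had Millipore-only peaks 3190 bp upstream (rank 343) and 6410 bp downstream (rank 3476), and a Perseus-only peak with the SF-1 consensus 16360 bp downstream (rank 3125). FDX1, the ferredoxin that passes electrons to mitochondrial P450 enzymes, had a Perseus-only peak 28 bp downstream of its start (rank 759). CYP11B2, aldosterone synthase, had a Perseus-only peak with the SF-1 consensus 6116 bp upstream (rank 4244), and POR, the P450 reductase, had one at 2243 bp upstream (rank 4324).

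Within 100 kb 2 of the 15 steroid genes, STAR and CYP11A1, had one-antibody peaks of both kinds, 8 had Perseus-only peaks without Millipore-only ones, and 3 (CYP21A2, CYB5A and AKR1C3) had the reverse. CYP11A1, the side chain cleavage enzyme that begins steroid synthesis, had a shared peak with the SF-1 consensus 40712 bp downstream of its start (Millipore rank 41). It also had Millipore-only peaks of rank 101, 108 and 2096 between 64963 and 85863 bp upstream, and Perseus-only peaks of rank 805 and 5015. CYP17A1, the 17-hydroxylase, had a shared peak with the SF-1 consensus (Millipore rank 3232) and 3 Perseus-only peaks. In all, 10 of 15 steroid genes had a Perseus-only peak within 100 kb, 5 a Millipore-only peak and 3 a shared one. Of all genes 45.5%, 27.0% and 6.17% did. Counts this small have wide counting error. CYP11B1 and CYP11B2 had the same Perseus-only peak, and HSD3B1 and HSD3B2 likewise had the same one, so these genes are not separate counts.

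For regulators of the adrenal and gonads the shares were also near those of all genes. Within 10 kb 3 of 18, 16.7%, had a Perseus-only peak and 1, 5.56%, a Millipore-only peak, beside 14.8% and 3.44%. A shared peak lay there for 1 of the 18, beside 1.01% of all genes. NR5A1, the gene of SF-1 itself, had a Millipore-only peak 951 bp upstream of its start (rank 795), Perseus-only peaks 91949 and 41224 bp downstream, and a shared peak with the SF-1 consensus 78074 bp downstream (Millipore rank 1800). AMHR2, the receptor for anti-Müllerian hormone, had a Perseus-only peak with the SF-1 consensus 1611 bp downstream (rank 2377), and CITED2, a coactivator, had one 765 bp upstream (rank 1555). LHX9, a LIM homeobox gene of the early gonad, had one 9132 bp upstream (rank 4694). NR0B2, a nuclear receptor without a DNA-binding domain, had a shared peak 459 bp upstream (Millipore rank 908).

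In the list of ACTH and cyclic AMP signalling 2 of 10 genes had a Perseus-only peak within 10 kb and 1 had a Millipore-only peak, beside 14.8% and 3.44% of all genes. PRKACA, the catalytic subunit of protein kinase A, had both, at 5096 bp downstream for Millipore (rank 378) and 9104 bp upstream for Perseus (rank 3664). GNAS, the stimulatory G protein subunit, had a Perseus-only peak 6002 bp downstream (rank 4585). Among genes of cholesterol supply, DHCR7, an enzyme of cholesterol synthesis, had a Perseus-only peak 261 bp upstream of its start (rank 2090), and SOAT1, which esterifies cholesterol, had one 9651 bp downstream (rank 817).

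Of 18 neuronal genes known to be silenced by REST 2, 11.1%, had a Millipore-only and 2 a Perseus-only peak within 10 kb, beside 3.44% and 14.8% of all genes. Within 100 kb 9 had each, beside 27.0% and 45.5% of all genes. This list was chosen with earlier results of these data known, so its shares cannot be read as an excess over all genes. The ranks and sequences differed. The Millipore-only peaks at NPAS4 and CELSR3 had ranks 2 and 27 and held the NRSF consensus, and so did those at L1CAM (rank 12, 10627 bp downstream) and SNAP25 (rank 1687, 47232 bp downstream). None of the Perseus-only peaks within 100 kb of these genes held it, the nearest to a start being at CELSR3, 956 bp upstream (rank 1207). GRIN1, a glutamate receptor subunit, had 7 Perseus-only peaks within 100 kb and no Millipore-only peak. These lay among other genes in the gene-dense end of chromosome 9 described below. The nearest was 8948 bp upstream of the GRIN1 start, and the best-ranked was the TPRN peak of rank 91, 62677 bp downstream.

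Of the large gene families, zinc finger and ribosomal protein genes had shares near those of all genes within 10 kb. Within 1 kb of the TSS of 508 zinc finger ZNF genes 65, 12.8%, had a Perseus-only peak and 4 had a Millipore-only peak, beside 9.35% and 0.734% of all genes. Within 10 kb the counts were 94, 18.5%, and 17, 3.35%, beside 14.8% and 3.44% of all genes. Of 86 ribosomal protein genes 15, 17.4%, had a Perseus-only and 2, 2.33%, a Millipore-only peak within 10 kb. Of 72 replication-dependent histone genes 6, 8.33%, had a Perseus-only, 0 a Millipore-only and 5 a shared peak within 10 kb. A shared peak lay within 10 kb of 1.01% of all genes. Within 100 kb, where neighbours in the histone clusters share peaks, 36 had a Perseus-only and 1, 1.39%, a Millipore-only peak, beside 45.5% and 27.0% of all genes. Of 414 olfactory receptor genes 12, 2.90%, were near a Millipore-only and 4, 0.966%, near a Perseus-only peak within 10 kb, and 98 (23.7%) and 45 (10.9%) within 100 kb. The Millipore-only shares were near those of all genes, 3.44% and 27.0%, and the Perseus-only shares were below 14.8% and 45.5%. These genes lie in clusters and so share peaks as well.

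The genes with most peaks of 1 antibody and none of the other lay in a gene-dense end of chromosome 9. CYSRT1, FAM166A, NDOR1, NELFB and the gene ENSG00000284976, which share their surroundings, each had 17 Perseus-only peaks within 100 kb, 4 of them with the SF-1 consensus and the best of rank 91, which is the TPRN peak shown above. On the Millipore side LYPD5 and ZNF283 each had 5 peaks, the best of rank 48, and CDCP1, GPR135 and JKAMP each had 4. In all, 5452 of 20163 genes had a Perseus-only peak within 100 kb and no basal Millipore peak, shared ones included. The reverse was so for 2118 of the 20163. By chromosome the Perseus-only class had more of its peaks on chromosome 19, 6.28% against 3.79%, and on chromosome 9, 9.39% against 7.11%. Chromosome Y held 22 Perseus-only peaks and 1 Millipore-only peak, and 21 of the 22 were near a gap.

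The overexpressed lists came from other libraries of the same cells at a higher SF-1 dosage, and each basal peak was looked up in them. Dosage and libraries changed together, so a peak not found again may have failed to repeat or may have changed with dosage. These cannot be told apart. Of the Millipore-only peaks 7.93% overlapped an overexpressed Millipore peak and 4.38% an overexpressed Perseus peak, and 3474, 89.5%, overlapped neither. Of the Perseus-only peaks 27.4% overlapped an overexpressed Perseus peak and 12.3% an overexpressed Millipore peak, and 4124, 67.5%, overlapped neither. Shared peaks were found again in either list in 67.8% of cases. The overexpressed lists hold 11910 Millipore and 7453 Perseus peaks, so the lower share for Millipore was found against the longer list. In the better-ranked 50% of each basal list the shares with the same antibody were 12.9% and 38.9%.

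Peaks with a consensus were found again more often. With the same antibody 23.6% of the Millipore-only peaks that held the SF-1 consensus were found again, against 6.08% of those that did not, and for Perseus-only peaks the shares were 34.2% and 25.9%. Of the 45 Millipore-only peaks with the NRSF consensus 40 were found again with the Millipore antibody, 88.9% (76.5 to 95.2), against 6.98% of the rest. These 45 had a median rank of 67 and a median width of 299 bp, against 2320 and 149 bp for all Millipore-only peaks. The comparisons in this paragraph were not matched for rank or width, and the part of either was not tested. With the Perseus antibody only 1 of the 45 was found at overexpressed dosage, the rank 4 peak in MIR7-3HG. CpG-rich Perseus-only peaks were found again with the Perseus antibody in 41.8% of cases, against 20.05% of the others. Those near a TSS were found again in 40.3% against 22.5%. Perseus-only peaks near a long gap, at 55.6% against 26.2%, and in repeats, at 47.3% against 26.8%, also recurred with the Perseus antibody. Of the Millipore-only peaks 2 of 23 near a gap and 0 of 3 in repeats were found again with the Millipore antibody.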

How the data were processed

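The authors mapped Illumina reads to hg19 with ELAND v2 and called peaks with CisGenome v2 (SeqPeak, read extension 150) on the 3 pooled libraries of each condition against 2 input libraries, and the submitters' processing notes name CASAVA 1.6. The deposited lists give positions and a rank, treated as a score whose ranked quantity is not given in the sources used here. Depth is likewise not given, so a longer list may reflect more reads. Starts lie on a grid of 50 bp, which limits every position.

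Centres were compared with GENCODE version 44 on GRCh37 (20163 protein-coding of 64449 genes on 24 chromosomes) by the outermost gene start, and sequences were read from GRCh37. Windows of equal width 5 kb to each side gave the background. Wilson, Newcombe and Mantel-Haenszel intervals treat peaks as independent. Python 3.11.15 was used with numba 0.67.0, pysam 0.24.0, scipy 1.17.1, matplotlib 3.10.9, numpy 2.4.6 and pandas 2.3.3, and the counting was tested on simulated data. Named peaks were the 5 best-ranked of each class, among all, outside gaps and repeats, within 1 kb of a TSS and with each consensus, the 3 shared sites with the best worst rank, the 5 genes with most peaks of 1 antibody only, and the listed genes with a peak within 100 kb. Printed sequences were chosen from these and the next ranks. Members and lists were chosen with earlier results of these data known. Alternatives covered the overlap rule, ranks, GC strata, annotation and motif form. Results for some listed genes are not reported here.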

Additional observations from a re-analysis of the deposited data

Results flagged for a closer look

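The difference between the antibodies was not the same at the 2 dosages for 4 features, beyond counting error over peaks. There is 1 list for each antibody and dosage, so the spread between libraries is unknown, and SF-1 dosage cannot be told apart from the length of the lists. For the share within 1 kb of a TSS the difference, Perseus only minus Millipore only, was 24.3 points at basal and 15.4 at overexpressed dosage (25.9% against 10.4%), which leaves 8.90 points between dosages (7.12 to 10.7). For CpG-rich peaks it was 31.9 points at basal and 21.3 at overexpressed dosage (32.7% against 11.4%), which leaves 10.6 points (8.76 to 12.4). For intergenic peaks it was -6.77 points at basal and 0.557 at overexpressed dosage (42.8% against 42.2%), which leaves -7.33 points (-9.87 to -4.79). For the NRSF consensus it was -1.01 points at basal and -0.538 at overexpressed dosage (0.230% against 0.768%), which leaves -0.474 points (-0.923 to -0.0920). The SF-1 consensus, with 1.72 points between dosages (-0.0261 to 3.43), repeats and gaps had intervals that included 0.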

How the results depend on the processing

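No paired analysis was possible because each group is 1 list called on pooled libraries. Of 125 values recomputed under alternatives 95 kept their direction and their side of 0 (a gene count within 1.5 times, a single share within its interval), 24 moved, 4 lost an interval that excluded 0 and 2 turned. Some of the 95 shrank much, such as the difference within 1 kb of a TSS, 9.24 points within GC strata and 3.04 without CpG-rich peaks, and the CpG-rich difference, 10.2 within GC strata and 8.55 over 10 kb from a TSS. The mean GC difference turned to -0.199 points over 10 kb from a TSS, with an interval that included 0 (-0.696 to 0.299), and to -1.60 without CpG-rich peaks. The intergenic difference was -1.97 within GC strata and -1.03 over 10 kb from a TSS, and the NRSF difference was -0.376 with 5 mismatches and -0.155 for peaks no wider than the median, all 4 with intervals that included 0. Leaving out CpG-rich or wide peaks was chosen after seeing the data. Shared peaks (Millipore, Perseus) were 10.1% and 6.65% with an overlap of 50% of the shorter peak, 12.7% and 8.63% with centres within 500 bp, 10.4% and 6.86% in the better-ranked 50%, and 8.45% for Millipore with lists of equal length. Genes within 10 kb (Perseus only, Millipore only, both) were 1837, 397 and 72 in the better-ranked 50%, 1886, 148 and 24 at 1 kb, and 9183, 5451 and 3222 at 100 kb. Found again with the same antibody were 12.9% (Millipore) and 38.9% (Perseus) in the better-ranked 50%, 33.7% of Perseus-only peaks with lists of equal length and 26.2% without peaks near gaps. With the other antibody they were 8.64% and 16.7% in the better-ranked 50%, and 5.49% and 14.6% with lists of equal length. The cause of these changes was not tested. The SF-1 difference ran from 4.75 points (half-site) to 13.5 (1 mismatch allowed), and the gap difference from 3.73 to 5.52. Unknown depth limits every share to the peaks that were called.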
